A study of Mus musculus with 28 samples.

Results

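The genes described here are the cytochrome P450 genes measured in whole mouse kidney, chosen as every row of the kidney table whose symbol is Cyp followed by a family number, a subfamily letter and a gene number. The rule found 36 genes of 12315 in the table, and it uses no expression value. In GENCODE vM21 it matches 99 protein-coding genes, and those without a row were not analysed here. Cyp51 has no subfamily letter and is therefore no member. The table had been filtered: every listed gene reached 2.5 CPM, reads of a gene scaled to an equal library total, in at least 4 of 16 kidney libraries. Of the 36 members 34 met that level without the Fcgr2b-/- libraries, while Cyp2j13 and Cyp4f18 were listed only because of them.

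RNA sequencing covered 4 genotypes of C57BL/6 littermates, all female and 7 to 9 months old. Double mutants lacked both Fcgr2b and Rhbdf2, and the other groups were Fcgr2b-/-, Rhbdf2-/- and wild-type. Fcgr2b encodes the inhibitory receptor for IgG, and mice of this strain without it develop an autoimmune disease like lupus with nephritis, and Rhbdf2 encodes iRhom2, which brings the protease ADAM17 to the cell surface to release TNF and EGF-receptor ligands. Each genotype had 4 kidney libraries, made from the whole organ after perfusion, and 3 libraries of kidney macrophages, sorted as leukocytes with high F4/80 and with CD11b but neither Ly6G nor Ly6C. No label limits either knockout to a cell type. Whether each library stands for 1 animal is not said, so the p-values describe only how these libraries vary.

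Cytochrome P450 enzymes are haem proteins that insert an oxygen atom into fats, sterols, vitamins and foreign chemicals, with electrons passed on by P450 reductase in the endoplasmic reticulum or by ferredoxin in mitochondria. In the kidney most of them belong to the proximal tubule. There the Cyp4a enzymes make vasoactive omega-hydroxylated products of arachidonic acid, Cyp2c and Cyp2j enzymes make its epoxides, and the mitochondrial pair of Cyp27b1 and Cyp24a1 makes and destroys active vitamin D. Many mouse P450 genes lie in clusters of recent copies, so near-identical copies can exchange reads.

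Sequences just before the start site are given for 4 members, because the first pair are near-identical copies and the second pair are members of 1 cluster that moved in opposite directions. They are from RefSeq on GRCm38.p6, which had such a window for 23 of the 36 members, and each holds the 250 bases before the start, 5′ to 3′. Cyp2a4 (chr7:26306942-26307191, plus strand) and Cyp2a5 (chr7:26835089-26835338, plus strand) were 97.6% identical in a global alignment. Capitals mark the bases that differ, which are 4 substitutions and 2 gaps at the ends.
Cyp2a4: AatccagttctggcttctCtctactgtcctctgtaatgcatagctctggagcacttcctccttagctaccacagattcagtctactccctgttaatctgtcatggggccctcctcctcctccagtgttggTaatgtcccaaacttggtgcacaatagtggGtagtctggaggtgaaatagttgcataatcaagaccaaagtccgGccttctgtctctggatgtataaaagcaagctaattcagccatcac
Cyp2a5: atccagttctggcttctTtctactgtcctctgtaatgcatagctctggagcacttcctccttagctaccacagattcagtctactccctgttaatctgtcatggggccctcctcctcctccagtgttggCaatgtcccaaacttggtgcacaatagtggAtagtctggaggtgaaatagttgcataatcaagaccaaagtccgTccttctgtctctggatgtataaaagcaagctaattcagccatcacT

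Cyp2j5 (chr4:96664120-96664369, minus strand) and Cyp2j13 (chr4:96077541-96077790, minus strand, for the more downstream of its listed starts) were 50.0% identical, and the other Cyp2j pairs were 48.0% to 53.2% identical. Capitals mark matches on either strand to the nuclear receptor half-site AGGTCA, the vitamin D receptor half-sites AGTTCA and GGTTCA and the Ah receptor core GCGTG.
Cyp2j5: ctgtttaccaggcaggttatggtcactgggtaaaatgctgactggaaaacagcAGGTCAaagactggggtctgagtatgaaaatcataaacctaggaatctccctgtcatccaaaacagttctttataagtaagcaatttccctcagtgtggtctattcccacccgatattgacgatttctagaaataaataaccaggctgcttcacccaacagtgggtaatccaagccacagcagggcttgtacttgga
Cyp2j13: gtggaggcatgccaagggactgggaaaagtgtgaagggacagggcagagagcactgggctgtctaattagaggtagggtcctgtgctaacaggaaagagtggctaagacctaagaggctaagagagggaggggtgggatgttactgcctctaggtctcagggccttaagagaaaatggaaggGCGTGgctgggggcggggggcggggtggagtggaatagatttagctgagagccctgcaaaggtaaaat

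AGGTCA stands in Cyp2j5 alone among the 23 members with a window and in 14.0% of 32851 windows of all genes. GCGTG stands in 7 of the 23, Cyp2j13 among them, and in 28.2% of all windows. AGTTCA stands in 3 of the 23 and in 11.8% of all windows, and GGTTCA in 5 of the 23 and in 8.8%. None of these motifs overlaps another in the windows shown. A member was counted when any of its listed windows matched, while the share of all is of single windows. Members with several listed starts thus had more chances to match. A match is a description of letters and not a binding site.

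The kidney libraries held 29017955 to 41617801 recovered reads. Both targeted genes had reads in the libraries of their own knockouts, with Rhbdf2 at 9.29 to 19.7 CPM in double-mutant, 25.0 to 37.1 in Fcgr2b-/-, 10.8 to 12.3 in Rhbdf2-/- and 12.9 CPM in every wild-type kidney, and Fcgr2b at 20.7 to 41.5, 23.4 to 34.2, 31.7 to 35.3 and 29.3 to 35.8 CPM in the same order. The labels do not say what each deletion removed, so these values do not check the labels. All kidney libraries of a genotype shared 1 sequencing lane that held no other genotype, and the 2 cannot be told apart. Mitochondrial transcripts took 14.51% of Fcgr2b-/- replicate 4 and 14.27% of double-mutant replicate 4, and calls that change without this pair are given with the results. The other libraries had 9.19% to 9.73% in double-mutant and 5.87% to 9.06% in Fcgr2b-/- kidney. Rhbdf2-/- kidney had 11.44% to 11.98% and wild-type kidney 10.44% to 11.77%, so the share also differed between genotypes. Markers of the proximal tubule, 14 of 15 measured, summed to 20490 to 23490 CPM in double-mutant, 5315 to 11150 in Fcgr2b-/-, 25220 to 30480 in Rhbdf2-/- and 28270 to 31050 CPM in wild-type kidney. Macrophage markers, 9 of 10 measured, summed to 358.6 to 1658, 932.6 to 2487, 209.9 to 354.4 and 206.6 to 257.6 CPM in the same order. Of 10 adrenal cortex markers only Star had a value, at 2.00 to 4.46 CPM.

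In Fcgr2b-/- kidney the P450 family split: 13 members rose and 11 fell relative to wild-type, and the remaining 12 did not pass the test. The falls included the most abundant member, Cyp2j5, Cyp2j11 of the same cluster, the epoxygenase Cyp2c44, and Cyp2d12, which was nearly lost. The rises included the vitamin D enzymes Cyp27b1 and Cyp24a1, the omega-hydroxylases Cyp4a12a and Cyp4a12b, and Cyp2j13, which was close to absent from the other genotypes. Cyp2j13 and Cyp4f18, both among the 13 rises, were listed only because of the Fcgr2b-/- libraries. Their rises were thus wholly or partly a condition of listing, and the counts include them. The call of 24 members is 66.7% of the family against a background of 60.3% of all 12315 genes, so the share is near that of the whole table. Higher calls made up 29.5% and lower calls 30.8% of all genes. The median log2 change was 0.15 over the members and -0.01 over all genes (log2(CPM+1) scale, limma with Benjamini-Hochberg adjusted p below 0.05). Scaled to the total without mitochondrial transcripts, the median of all genes shifted to 0.17, the share of higher genes among all calls was 68.8% in place of 48.9%, and 16 members rose and 10 fell.

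In double-mutant against Fcgr2b-/- kidney 10 members rose and 10 fell, which is 55.6% of the family against a background of 45.3% (22.5% higher and 22.8% lower). The 10 falls include Cyp2j13 and Cyp4f18, which are listed only through the Fcgr2b-/- libraries. Without mitochondrial transcripts in the total 9 rose and 11 fell, and the share of higher genes among all calls was 34.7% in place of 49.6%. Without both libraries rich in mitochondrial reads 16 members were called: Cyp27a1, Cyp2j9, Cyp2r1, Cyp2u1, Cyp4a12a and Cyp4f18 lost their call, with adjusted p of 0.0631 to 0.1196, and Cyp1b1 and Cyp2j6 gained one, both lower in double mutants. Of the 24 members called in Fcgr2b-/- against wild-type kidney, 19 were called in the opposite direction here and 0 in the same direction, a pattern that the shared Fcgr2b-/- libraries favour. Comparisons that share no library give the same 24 members side by side: their median absolute log2 change was 0.308 for double mutant against Rhbdf2-/- and 1.597 for Fcgr2b-/- against wild-type. These 24 were selected for their change in the Fcgr2b-/- against wild-type comparison, which favours a smaller value in the other, so nothing is read from the gap. The sign was the same for 20. The interaction, the double mutant minus Fcgr2b-/- difference less the Rhbdf2-/- minus wild-type difference, passed for 13 members, 8 positive and 5 negative, or 36.1% against a background of 27.8% (13.9% in each direction). The 5 negative members include Cyp2j13, which is listed only through the Fcgr2b-/- libraries. With mitochondrial transcripts out of the total it was 7 and 7, and 36.3% of all interaction calls were positive in place of 50.0%.

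**Figure D1:**
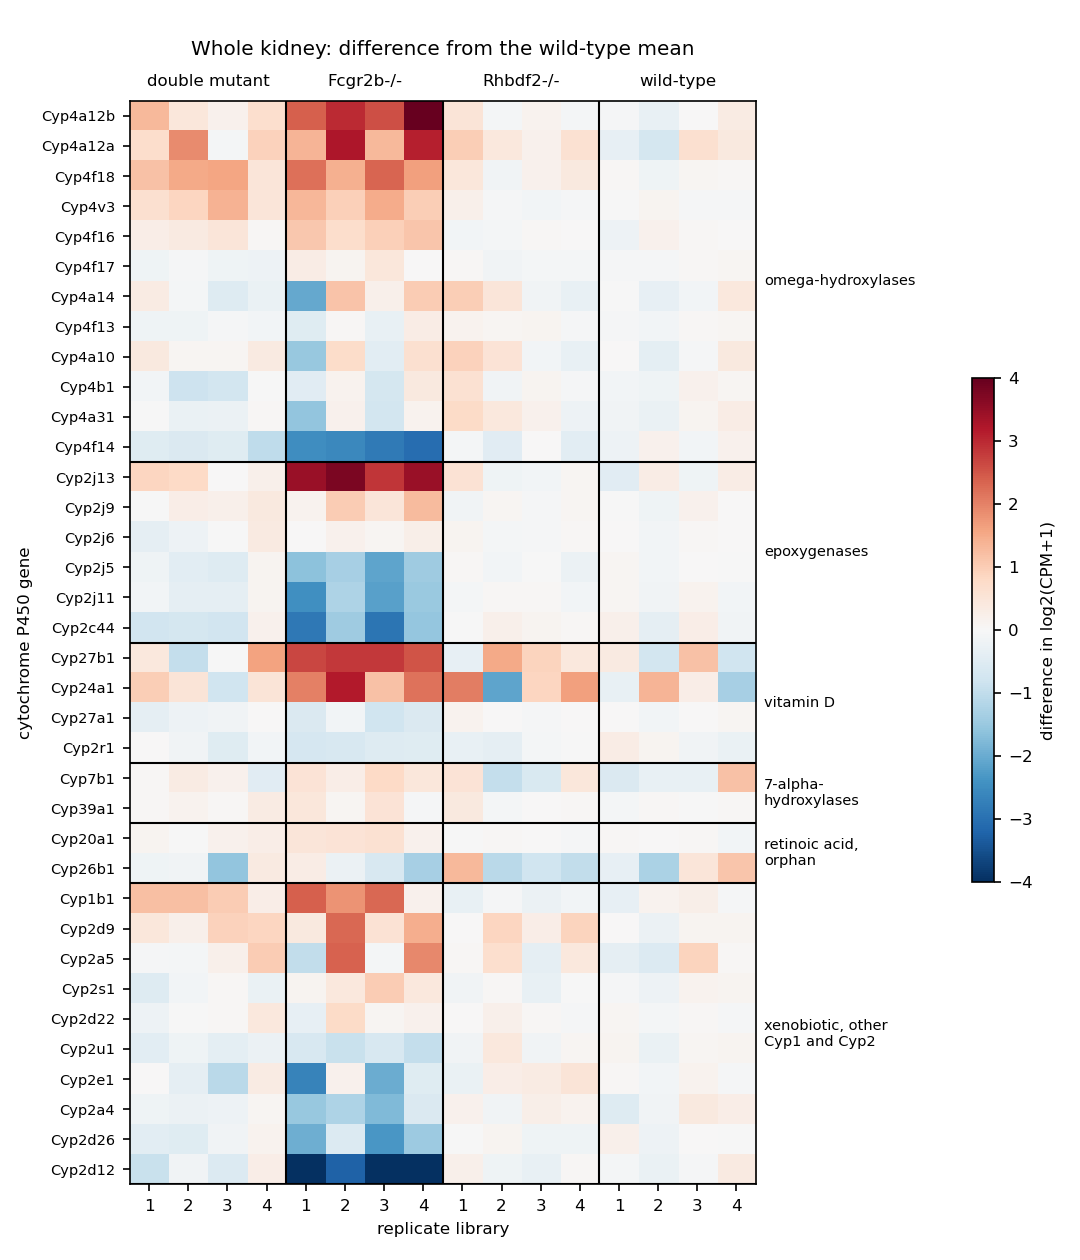
Difference of each library from the wild-type mean in log2(CPM+1) for the 36 cytochrome P450 genes (rows, by role) in 16 whole kidney libraries (columns, 4 replicates of each genotype), red above and blue below wild-type. The Fcgr2b-/- columns hold the strongest colours in both directions, with Cyp2d12 lowest and Cyp2j13 highest, and the double-mutant columns are paler.

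In wild-type kidney the length-adjusted levels (CPM per kilobase of exon, with n = 4 per group) spanned from 564 ± 30.6 (SD) for Cyp2j5 to 0.17 ± 0.095 for Cyp2j13. Behind Cyp2j5 came Cyp2d26 at 274 ± 29.9 and Cyp4a14 at 272 ± 63.2, which did not differ beyond their spread. Cyp4a10 followed at 192 ± 42.6, then Cyp4b1 at 152 ± 17.1 and Cyp2j11 at 151 ± 13.8, which also lay within their spread. By its means the order in Fcgr2b-/- kidney was Cyp4a14, Cyp4a10 and Cyp2j5, which lay within their spread: Cyp4a14 averaged 374 ± 239 and Cyp4a10 205 ± 122 CPM per kilobase, and Cyp2j5 187 ± 41.5. Cyp2j5 ranked first in the 3 other genotypes, at 478 ± 94.1 in double mutants and 537 ± 44.1 in Rhbdf2-/-. Summed CPM of all 36 members overlapped between groups, at 3712 to 5067 in double-mutant, 2098 to 5306 in Fcgr2b-/-, 4358 to 6269 in Rhbdf2-/- and 4149 to 5163 CPM in wild-type kidney.

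**Figure D2:**
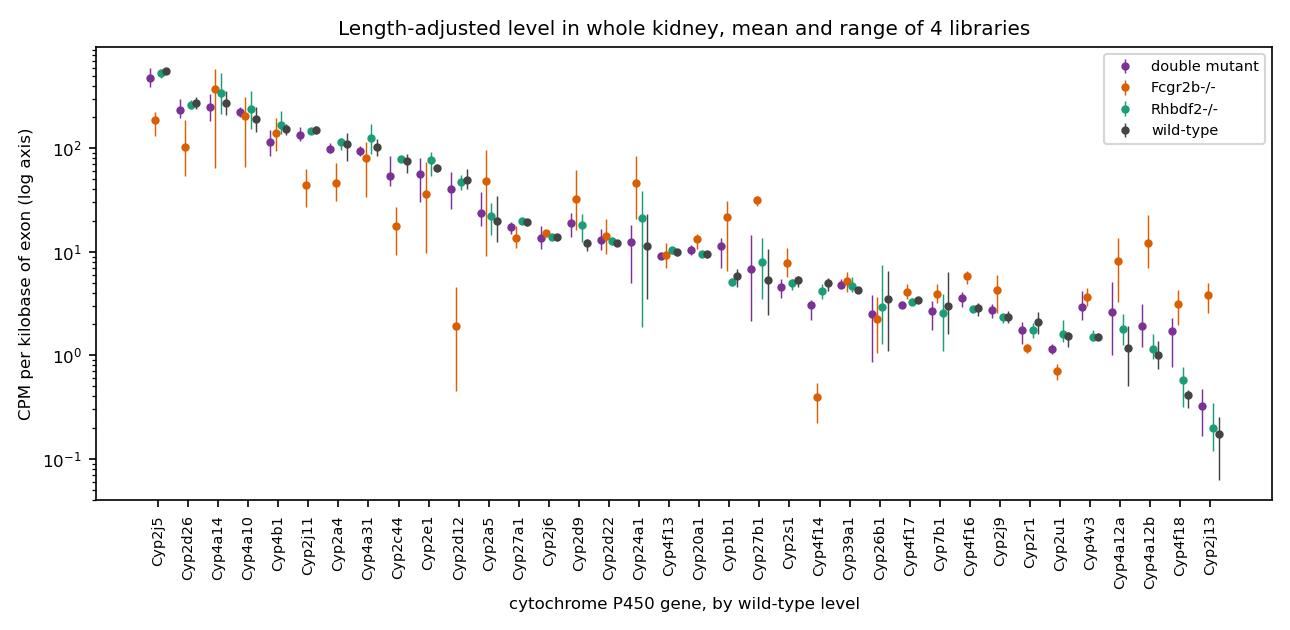
Mean level of each cytochrome P450 gene in CPM per kilobase of exon (log axis) in 4 genotypes of whole kidney, with bars from the lowest to the highest of 4 libraries and genes ordered by the wild-type mean. Cyp2j5 is highest in wild-type and Cyp2j13 lowest, and Cyp2d12, Cyp4f14 and Cyp2j13 show the widest gap between Fcgr2b-/- and wild-type.

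Among the 12 omega-hydroxylases of the Cyp4 family, 5 rose, 1 fell and 6 did not pass in Fcgr2b-/- against wild-type kidney, with a median log2 change of 0.15. The 5 rises include Cyp4f18, which is listed only through the Fcgr2b-/- libraries. Of all genes 29.5% rose and 30.8% fell in that comparison. The Cyp4a genes lie together on chromosome 4. Cyp4a12b had 7.42, 3.68, 2.86 and 4.45 CPM in double-mutant, 16.8, 25.6, 19.3 and 54.2 in Fcgr2b-/-, 3.83, 2.22, 2.72 and 2.22 in Rhbdf2-/- and 2.30, 1.76, 2.40 and 3.28 CPM in wild-type kidney. All Fcgr2b-/- libraries lay above all others, and the change was 2.99 ± 0.31 on the log2 scale (SE, n = 4 per group; limma adjusted p = 2.13e-06) against wild-type and -2.33 ± 0.31 in double mutants against Fcgr2b-/- (adjusted p = 4.38e-05). Its near-copy Cyp4a12a, which makes the vasoconstrictor product of arachidonic acid in mouse kidney and is known for higher levels in males, rose by 2.26 ± 0.48 (adjusted p = 0.00106). In double mutants Cyp4a12a ranged from 2.42 to 12.4 CPM and was lower than in Fcgr2b-/- by a log2 change of -1.40 ± 0.48 (adjusted p = 0.0287), a call that was lost in 8 alternatives, among them voom, only the compared groups in the fit, Fcgr2b-/- replicate 2 or 4 or double-mutant replicate 1, 3 or 4 left out, and both libraries rich in mitochondrial reads left out (adjusted p up to 0.115). The pair shares 48.9% and 49.4% of its 50-base stretches, so the split of reads between them is uncertain.

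The abundant Cyp4a14, Cyp4a10 and Cyp4a31, known targets of the fatty acid sensor PPAR alpha, did not pass in any kidney comparison with all libraries. Cyp4a14 had 878, 662, 480 and 581 CPM in double-mutant, 167, 1519, 803 and 1405 in Fcgr2b-/-, 1385, 977, 636 and 564 in Rhbdf2-/- and 694, 549, 649 and 936 CPM in wild-type kidney. The Fcgr2b-/- libraries held both the lowest and the highest value of the 16. The log2 change was 0.08 ± 0.53 against wild-type (limma adjusted p = 0.908). Without Fcgr2b-/- replicate 1 Cyp4a14 was called higher in that comparison (adjusted p = 0.0450) and lower in double mutants against Fcgr2b-/- (adjusted p = 0.0312). Cyp4a10 and Cyp4a31 shared 29.8% and 20.6% of their 50-base stretches with other genes, and in Fcgr2b-/- replicate 1 both were also at their lowest, with 138 and 84.2 CPM. Cyp4b1, which oxidises medium-chain fatty acids and activates furan toxins, ranged from 190 to 333 CPM in double-mutant, 209 to 441 in Fcgr2b-/-, 308 to 515 in Rhbdf2-/- and 303 to 386 CPM in wild-type kidney and was not called. Without both libraries rich in mitochondrial reads it was lower in double-mutant than in Rhbdf2-/- kidney, by a log2 change of -0.70 (adjusted p = 0.0431).

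The Cyp4f genes went different ways. Cyp4f14, which inactivates leukotriene B4, had 8.21, 7.54, 8.26 and 5.296 CPM in double-mutant, 1.30, 1.16, 0.79 and 0.54 in Fcgr2b-/-, 11.2, 8.36, 11.8 and 8.56 in Rhbdf2-/- and 10.1, 13.3, 10.9 and 13.3 CPM in wild-type kidney. Every Fcgr2b-/- value lay below every other, and double-mutant values lay between Fcgr2b-/- and wild-type with no overlap. The log2 change was -2.74 ± 0.16 in Fcgr2b-/- against wild-type (limma adjusted p = 3.93e-08) and 2.10 ± 0.16 in double mutants against Fcgr2b-/- (adjusted p = 7.71e-07). Cyp4f18, another leukotriene B4 hydroxylase that is known from mouse neutrophils, had 2.95, 4.04, 4.26 and 1.44 CPM in double-mutant, 7.04, 3.67, 7.90 and 4.48 in Fcgr2b-/-, 1.42, 0.59, 0.99 and 1.28 in Rhbdf2-/- and 0.80, 0.58, 0.86 and 0.81 CPM in wild-type kidney. Its Fcgr2b-/- and double-mutant values overlapped each other and lay above all Rhbdf2-/- and wild-type values, with a rise of 1.90 ± 0.25 in Fcgr2b-/- against wild-type (adjusted p = 1.71e-05). Only 3 libraries of other genotypes reached the level that listed Cyp4f18, so its difference was in part a condition of its being listed. Zfp961 on the opposite strand overlaps 9.8% of Cyp4f18 exon bases, and whether counting used strand is not stated.

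Cyp4f16 rose by 0.96 ± 0.11 in Fcgr2b-/- against wild-type (limma adjusted p = 6.29e-06) and fell by 0.67 in double mutants against Fcgr2b-/- (adjusted p = 0.000279). It shares 16.3% of its 50-base stretches with Cyp4f37. Cyp4v3, the mouse counterpart of the human gene mutated in Bietti retinal dystrophy, rose by 1.18 ± 0.16 in Fcgr2b-/- against wild-type (adjusted p = 2.83e-05). It had 13.6 to 25.9 CPM in double-mutant, 18.9 to 27.7 in Fcgr2b-/-, 8.55 to 11.0 in Rhbdf2-/- and 9.07 to 10.2 CPM in wild-type kidney, and both groups that lack Fcgr2b lay above both that have it. Gm45753 on the same strand overlaps 8.2% of Cyp4v3 exon bases and holds 7.0% of its 50-base stretches, so reads there are uncertain. Cyp4f17 fell by 0.36 in double mutants against Fcgr2b-/- (adjusted p = 0.00671), a call lost with only the compared groups in the fit (adjusted p = 0.0553). In Fcgr2b-/- against wild-type its log2 change was 0.22 ± 0.09 (adjusted p = 0.0609), which passed in 7 alternatives, the authors' deposited table (FDR 0.0489) among them, and Cyp4f13 was not called. The macrophage marker sums given above were likewise highest in Fcgr2b-/- and double-mutant kidney, with 9 of 9 measured markers higher in Fcgr2b-/- than in wild-type and a median log2 change of 2.89, and their part in these levels was not tested.

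**Figure D3:**
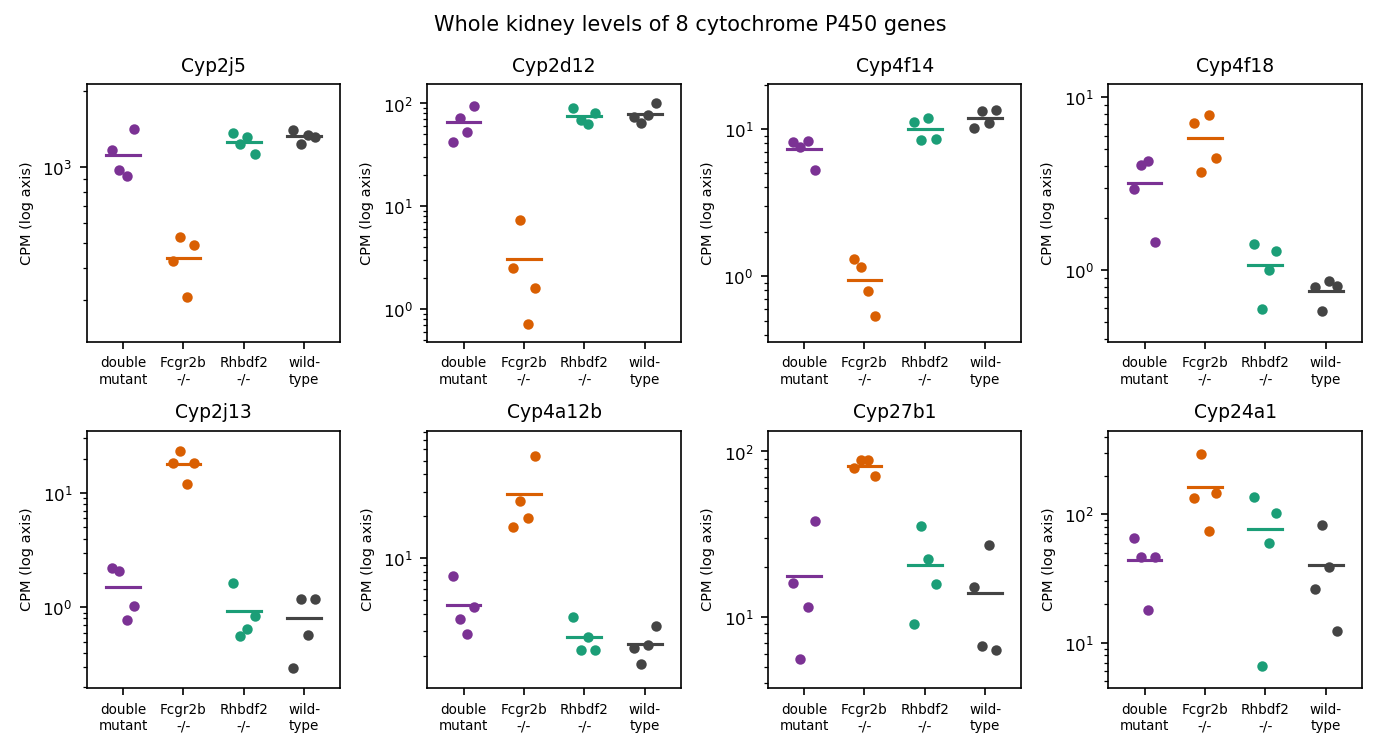
CPM of 8 cytochrome P450 genes (log axis) in 4 whole kidney libraries per genotype, with a line at the mean. Cyp2j5, Cyp2d12 and Cyp4f14 are lowest in Fcgr2b-/-, and Cyp2j13, Cyp4a12b and Cyp27b1 are highest there without overlap. Cyp24a1 in Fcgr2b-/- overlaps wild-type and Rhbdf2-/- and lies above the double mutants.

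In Fcgr2b-/- against wild-type kidney 29.5% of all genes rose and 30.8% fell. Among the 6 epoxygenases 2 rose, 3 fell and 1 did not pass, with Cyp2j13, listed only through the Fcgr2b-/- libraries, among the rises. The median log2 change of the 6 was -0.745. Their summed level was 1294 to 1961 CPM in double-mutant, 463.9 to 798.7 in Fcgr2b-/-, 1605 to 1846 in Rhbdf2-/- and 1665 to 1939 CPM in wild-type kidney. Cyp2j5, the main epoxygenase of the mouse proximal tubule, had 1168, 978, 925 and 1412 CPM in double-mutant, 424, 528, 307 and 492 in Fcgr2b-/-, 1364, 1231, 1311 and 1127 in Rhbdf2-/- and 1405, 1231, 1339 and 1311 CPM in wild-type kidney. All Fcgr2b-/- libraries lay below all others, and the double mutants overlapped Rhbdf2-/- and wild-type. The log2 change was -1.62 ± 0.16 in Fcgr2b-/- against wild-type (limma adjusted p = 1.33e-06) and 1.36 ± 0.16 in double mutants against Fcgr2b-/- (adjusted p = 1.52e-05). Cyp2j11 fell by 1.84 (adjusted p = 3.78e-06) and Cyp2c44, an epoxygenase of kidney tubule and vessel, fell by 2.20 (adjusted p = 3.78e-05), and both were higher in double mutants than in Fcgr2b-/-, by 1.65 ± 0.20 and 1.68 ± 0.32. In whole organs, fewer cells of a type and less RNA per cell cannot be told apart. The proximal tubule markers fell with these genes, 14 of 14 measured in Fcgr2b-/- against wild-type with a median log2 change of -1.45, and their part in the falls was not tested.

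Within the same cluster of chromosome 4, Cyp2j13 and Cyp2j9 went up. Cyp2j13 lies at mm10 positions 96027533 to 96077546, Cyp2j11 at 96294507 to 96348662 and Cyp2j5 at 96628772 to 96664154, with Cyp2j6 and Cyp2j9 between the last 2. Cyp2j13 had 2.20, 2.08, 0.77 and 1.02 CPM in double-mutant, 18.4, 23.2, 11.9 and 18.2 in Fcgr2b-/-, 1.64, 0.56, 0.64 and 0.84 in Rhbdf2-/- and 0.29, 1.18, 0.57 and 1.17 CPM in wild-type kidney. The Fcgr2b-/- libraries stood clear of the other 12, with a log2 change of 3.39 ± 0.26 against wild-type (limma adjusted p = 1.54e-07) and -2.92 ± 0.26 in double mutants against Fcgr2b-/- (adjusted p = 1.58e-06). Since Cyp2j13 passed the low-value filter through the Fcgr2b-/- libraries alone, its difference was a condition of its being listed. Only 0.1% of its 50-base stretches are shared with another gene. Cyp2j9 rose by 0.73 ± 0.19 (adjusted p = 0.00372), while Cyp2j6, with 50.6 to 58.6 CPM in Fcgr2b-/- and 46.3 to 51.6 CPM in wild-type kidney, was not called.

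**Figure D4:**
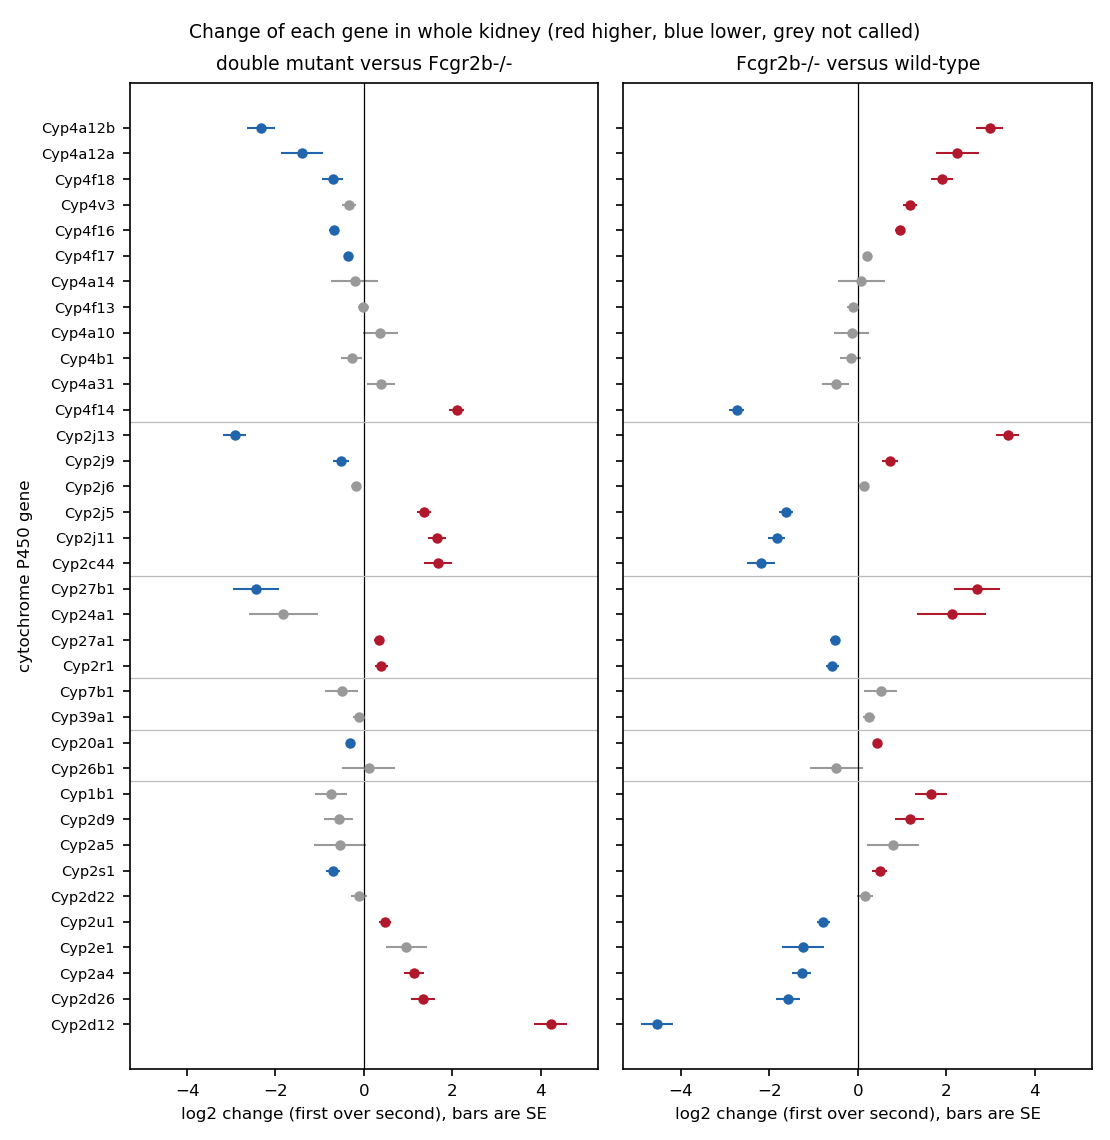
Log2 change with its SE (limma, n = 4 per group) of each cytochrome P450 gene in double mutants over Fcgr2b-/- (left) and Fcgr2b-/- over wild-type (right), with red for called higher, blue for called lower and grey for not called. The 2 comparisons share the Fcgr2b-/- libraries, and Cyp2d12, at -4.54 on the right, lies at 4.22 on the left.

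All 4 vitamin D enzymes were called in Fcgr2b-/- against wild-type kidney, 2 higher and 2 lower, where 60.3% of all genes were called, and the call of Cyp24a1 was lost in 4 alternatives. Cyp27b1, which makes the active hormone, had 16.0, 5.55, 11.5 and 37.8 CPM in double-mutant, 79.6, 88.7, 88.5 and 71.0 in Fcgr2b-/-, 9.04, 35.4, 22.4 and 15.9 in Rhbdf2-/- and 15.2, 6.65, 27.3 and 6.29 CPM in wild-type kidney. The Fcgr2b-/- libraries were close together and above all others, while the remaining groups were scattered and overlapped. The log2 change was 2.71 ± 0.52 in Fcgr2b-/- against wild-type (limma adjusted p = 0.000426) and -2.44 ± 0.52 in double mutants against Fcgr2b-/- (adjusted p = 0.0016). Cyp24a1, which degrades the hormone, had 65.2, 46.3, 18.0 and 46.8 CPM in double-mutant, 134, 298, 73.7 and 148 in Fcgr2b-/-, 137, 6.61, 59.5 and 102 in Rhbdf2-/- and 26.1, 83.2, 38.7 and 12.4 CPM in wild-type kidney. The Fcgr2b-/- group overlapped wild-type at its lowest library, and the rise of 2.13 ± 0.78 (adjusted p = 0.0283) was lost when wild-type replicate 1, wild-type replicate 4, Fcgr2b-/- replicate 2 or both libraries rich in mitochondrial reads were left out, with adjusted p up to 0.0927. In double mutants against Fcgr2b-/- the log2 difference was -1.82 ± 0.78 and did not pass (adjusted p = 0.0696), although the authors' deposited table gives an FDR of 0.0486.

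Cyp2r1, which takes the first step of activation, chiefly in liver, fell by 0.57 ± 0.15 in Fcgr2b-/- against wild-type (limma adjusted p = 0.00362), with 1.72 to 2.10 CPM in Fcgr2b-/- and 2.62 to 4.31 CPM in wild-type kidney. Cyp27a1, a mitochondrial sterol hydroxylase that also acts on vitamin D, fell by 0.52 ± 0.12 (adjusted p = 0.00154), with 23.7 to 38.9 CPM in Fcgr2b-/- and 38.96 to 44.1 CPM in wild-type kidney. In double mutants against Fcgr2b-/- Cyp27a1 was higher by 0.35 ± 0.12 (adjusted p = 0.0240) and Cyp2r1 by 0.40 ± 0.15 (adjusted p = 0.0383), and these calls were lost in 5 and 9 alternatives, with adjusted p up to 0.1196 and 0.1065. For both genes these include only the compared groups in the fit, both libraries rich in mitochondrial reads left out, and Fcgr2b-/- replicate 1, Fcgr2b-/- replicate 3 or double-mutant replicate 4 left out. For Cyp2r1 they also include mitochondrial transcripts out of the total and Fcgr2b-/- replicate 2 or double-mutant replicate 1 or 2 left out. Of 12 other vitamin D pathway genes 2 rose and 8 fell in Fcgr2b-/- against wild-type kidney, against 29.5% and 30.8% of all genes. Kl, the FGF23 co-receptor, averaged 212 ± 51.6 CPM in Fcgr2b-/- and 850 ± 94.9 CPM in wild-type kidney and fell by 2.02 (SD, n = 4 each; limma adjusted p = 1.6e-07). Cubn and Lrp2, the tubular receptors that retrieve the vitamin D carrier, fell by 2.23 and 1.88. Cubn, Lrp2 and Slc34a1 of this pathway list are also counted among the proximal tubule markers, and Calb1 among the thick limb and distal tubule markers. The part of these markers in the pathway counts was not tested.

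The sterol enzymes Cyp7b1 and Cyp39a1, which hydroxylate oxysterols, were not called in any kidney comparison with all libraries. Cyp7b1 ranged from 3.78 to 7.27 CPM in double-mutant, 6.95 to 10.5 in Fcgr2b-/-, 2.40 to 8.55 in Rhbdf2-/- and 3.45 to 13.7 CPM in wild-type kidney, and without wild-type replicate 4 it was called higher in Fcgr2b-/- than in wild-type (adjusted p = 0.0256). Cyp39a1 averaged 16.1 ± 3.37 CPM in Fcgr2b-/- and 13.1 ± 0.56 CPM in wild-type kidney (SD, n = 4 each; limma adjusted p = 0.0940), and it was called without both libraries rich in mitochondrial reads (log2 change 0.36, adjusted p = 0.0160) and with mitochondrial transcripts out of the total (0.43, adjusted p = 0.0134). Cyp26b1, which clears retinoic acid, was scattered within each group, from 4.16 to 36.5 CPM over all libraries, and was not called. Cyp20a1, whose substrate is not established, rose by 0.44 ± 0.09 in Fcgr2b-/- against wild-type kidney (adjusted p = 0.000551) and fell by 0.31 in double mutants against Fcgr2b-/- (adjusted p = 0.00916), the second lost with only the compared groups in the fit (adjusted p = 0.0682).

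Among the 10 remaining Cyp1 and Cyp2 genes, which oxidise foreign chemicals and steroids, 3 rose and 5 fell in Fcgr2b-/- against wild-type kidney, with a median log2 change of -0.31. The shares of all genes were 29.5% higher and 30.8% lower. Cyp2d12 had 42.2, 71.7, 53.3 and 94.9 CPM in double-mutant, 2.53, 7.43, 0.73 and 1.63 in Fcgr2b-/-, 89.6, 69.0, 63.6 and 81.2 in Rhbdf2-/- and 74.4, 64.9, 76.5 and 102 CPM in wild-type kidney. The Fcgr2b-/- libraries lay far below the rest, and the double mutants overlapped Rhbdf2-/- and wild-type. Its log2 change was the largest of the family, -4.54 ± 0.36 in Fcgr2b-/- against wild-type (limma adjusted p = 2.69e-07) and 4.22 ± 0.36 in double mutants against Fcgr2b-/- (adjusted p = 1.44e-06). Of its cluster on chromosome 15, Cyp2d26 also fell by 1.57 ± 0.27 (adjusted p = 0.000186), Cyp2d9, a testosterone hydroxylase of male mouse liver, rose by 1.18 ± 0.33 (adjusted p = 0.00671), and Cyp2d22 was not called. Cyp2d9 shares 21.8% of its 50-base stretches with other genes, so its value is uncertain.

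Of the near-identical copies Cyp2a4 and Cyp2a5 only one was called. Cyp2a4, a testosterone hydroxylase, had 165, 156, 162 and 193 CPM in double-mutant, 64.5, 78.8, 53.3 and 124 in Fcgr2b-/-, 207, 167, 217 and 204 in Rhbdf2-/- and 129, 169, 242 and 221 CPM in wild-type kidney. It fell by 1.27 ± 0.22 in Fcgr2b-/- against wild-type with no overlap (limma adjusted p = 0.000208) and was higher in double mutants than in Fcgr2b-/- by 1.14 ± 0.22 (adjusted p = 0.000898). Cyp2a5, which hydroxylates coumarin, had 37.0, 36.5, 43.8 and 78.4 CPM in double-mutant, 18.8, 201, 36.6 and 147 in Fcgr2b-/-, 39.9, 61.8, 29.8 and 52.2 in Rhbdf2-/- and 29.4, 25.7, 71.7 and 39.6 CPM in wild-type kidney. The Fcgr2b-/- libraries were both the lowest and the highest, with a log2 difference of 0.80 ± 0.59 (adjusted p = 0.248), which was called without Fcgr2b-/- replicate 1 (adjusted p = 0.0278). The genes share 38.0% and 37.0% of their 50-base stretches with other genes, so reads may be split between them, and whether their changes differ from each other was not tested.

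Cyp1b1, an Ah receptor target that oxidises oestradiol and polycyclic hydrocarbons, had 69.7, 69.0, 61.3 and 35.7 CPM in double-mutant, 160, 105, 149 and 33.5 in Fcgr2b-/-, 24.1, 28.9, 25.1 and 27.6 in Rhbdf2-/- and 23.6, 33.1, 34.8 and 28.4 CPM in wild-type kidney. Replicate 4 was the lowest library in both groups that lack Fcgr2b, and Fcgr2b-/- replicate 4 lay within the wild-type range. The rise in Fcgr2b-/- against wild-type was 1.66 ± 0.37 (limma adjusted p = 0.00131). Without both replicate 4 libraries Cyp1b1 was also higher in double-mutant than in wild-type kidney, by 1.14 (adjusted p = 0.000249), and lower than in Fcgr2b-/-, by a log2 change of -1.02 (adjusted p = 0.000277), neither of which passed with them. The interaction was then called as well, at -0.85 (adjusted p = 0.00845). That pair was left out after seeing the data and holds the lowest Cyp1b1 value of each group, which favours such calls. Fibroblast markers, 6 of 6 measured, summed to 166.0 to 617.0 CPM in double-mutant, 518.5 to 1517 in Fcgr2b-/-, 128.7 to 252.3 in Rhbdf2-/- and 191.9 to 280.9 CPM in wild-type kidney and were lowest in the same replicate 4 libraries of both groups. Their part in the Cyp1b1 levels was not tested. Cyp2e1, the ethanol and paracetamol oxidase, had 121, 92.2, 55.6 and 148 CPM in double-mutant, 17.8, 135, 29.5 and 84.6 in Fcgr2b-/-, 98.0, 143, 150 and 170 in Rhbdf2-/- and 122, 110, 130 and 115 CPM in wild-type kidney. Its fall of 1.24 ± 0.47 in Fcgr2b-/- against wild-type (adjusted p = 0.0341) was lost in 9 alternatives, with any wild-type replicate or Fcgr2b-/- replicate 1 or 3 left out, with mitochondrial transcripts out of the total, with only the compared groups in the fit, and in the authors' deposited table (FDR 0.136). Cyp2s1 rose by 0.50 ± 0.16 and Cyp2u1, a fatty acid hydroxylase, fell by 0.78 ± 0.14 (adjusted p = 0.0174 and 0.000318), and antisense genes overlap 5.3% and 10.5% of their exon bases. The Cyp2s1 call was lost without wild-type replicate 2 or Fcgr2b-/- replicate 3 (adjusted p = 0.0526 and 0.0560).

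Set against wild-type, double-mutant kidney differed in 3 members, 8.33% against a background of 7.29% (4.52% higher and 2.77% lower). Cyp4f18 was higher by 1.19 ± 0.25 (limma adjusted p = 0.0166) and Cyp4v3 by 0.85 ± 0.16 (adjusted p = 0.0132), and Cyp4f14 was lower by a log2 change of -0.64 ± 0.16 (adjusted p = 0.0321). The Cyp4f14 call was lost in 10 alternatives, with adjusted p up to 0.0994. The count was 1 when wild-type replicate 1 or 4 or double-mutant replicate 2 or 3 was left out, and 5 without both replicate 4 libraries of the Fcgr2b-/- and double-mutant groups, where Cyp1b1 and Cyp4f16 were also higher. Scaled without mitochondrial transcripts Cyp4f14 was not called, and 84.7% of all calls were higher in place of 62.0%. Against Rhbdf2-/- kidney Cyp4f18 and Cyp4v3 were again higher in double mutants, by 0.97 ± 0.25 and 0.85 ± 0.16 (adjusted p = 0.0470 and 0.0233), 5.56% of the family against a background of 3.5% (2.32% higher and 1.18% lower). That count was 0 when Rhbdf2-/- replicate 2 or 3 or double-mutant replicate 2 or 3 was left out, 1 without Rhbdf2-/- replicate 1 or 4 or double-mutant replicate 1, 4 without double-mutant replicate 4 and 5 without both replicate 4 libraries. Of all calls 88.5% were higher without mitochondrial transcripts in the total and 77.2% with median-of-ratios scaling, in place of 66.4%. Outside Fcgr2b-/-, only double-mutant libraries, at 2.95, 4.04 and 4.26 CPM, reached the level that listed Cyp4f18. Its differences from wild-type and Rhbdf2-/- were therefore in part a condition of its being listed, and the counts above include it.

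Rhbdf2-/- kidney gave 0 called members against wild-type, against a background of 0%, with limma, with voom and in the authors' deposited table, and 0 members had an unadjusted p below 0.05. The members with the smallest p were Cyp2d9, with a log2 difference of 0.51 ± 0.33, Cyp4f14 with -0.24 ± 0.16 and Cyp2r1 with -0.18 ± 0.15 (adjusted p of 1 in each).

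In sorted kidney macrophages 21 P450 genes had values among 10523 genes. No lane or batch is recorded for these libraries, so whether genotype can be told apart from them is not known. Macrophage markers, 9 of 10 measured, summed to 39550 to 44410 CPM in double-mutant, 46050 to 59840 in Fcgr2b-/-, 26680 to 29240 in Rhbdf2-/- and 23200 to 32920 CPM in wild-type cells. In Fcgr2b-/- against wild-type cells 13 members were called, 4 higher and 9 lower, 61.9% against a background of 52.8% (24.2% higher and 28.5% lower). Cyp27a1, which in macrophages makes the cholesterol product that activates the liver X receptor, had 92.2, 138 and 222 CPM in double-mutant, 43.4, 39.4 and 44.4 in Fcgr2b-/-, 412, 449 and 463 in Rhbdf2-/- and 397, 391 and 265 CPM in wild-type cells. The groups did not overlap, and the narrowest gap lay between Rhbdf2-/- and wild-type. The log2 change was -3.00 ± 0.25 in Fcgr2b-/- against wild-type (n = 3 per group; limma adjusted p = 5.85e-06) and 1.72 ± 0.25 in double mutants against Fcgr2b-/- (adjusted p = 0.000707).

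Cyp4f18, Cyp4v3 and Cyp4f16, which rose in Fcgr2b-/- kidney, also rose in Fcgr2b-/- macrophages. Cyp4f18 had 310, 491 and 419 CPM in double-mutant, 326, 378 and 462 in Fcgr2b-/-, 266, 281 and 270 in Rhbdf2-/- and 182, 206 and 259 CPM in wild-type cells, and it rose by 0.85 ± 0.18 in Fcgr2b-/- against wild-type (limma adjusted p = 0.00233). Cyp4v3 rose by 0.46 ± 0.14 (adjusted p = 0.0169) and Cyp4f16 by 1.08 ± 0.13 (adjusted p = 6.24e-05), and none of the 3 was called between double-mutant and Fcgr2b-/- cells. Cyp24a1 was called higher from levels of 14.5, 1.21 and 5.43 CPM in Fcgr2b-/- against 1.52, 0.17 and 1.00 CPM in wild-type cells, which overlapped. Outside Fcgr2b-/- cells its highest values were 4.55 and 1.70 CPM, in Rhbdf2-/- replicates 3 and 1. The low-value filter of the macrophage values was not examined, so the differences of Cyp24a1 may be in part a condition of its being listed. The 8 other falls were in Cyp2j11, Cyp2j6, Cyp4f13, Cyp2s1, Cyp2d12, Cyp2j5, Cyp2d22 and Cyp39a1, with log2 changes of -2.65 to -1.53. Proximal tubule markers, 14 of 15 measured, were present in these sorted cells at a summed 885.2 to 1039 CPM in double-mutant, 981.8 to 1827 in Fcgr2b-/-, 1790 to 2570 in Rhbdf2-/- and 1119 to 2194 CPM in wild-type cells. Of these 1 rose and 7 fell in Fcgr2b-/- against wild-type cells, with a median log2 change of -1.11. Thick limb and distal tubule markers, 5 of 5 measured, summed to 413.5 to 2266 CPM in double-mutant, 379.8 to 1010 in Fcgr2b-/-, 2726 to 3084 in Rhbdf2-/- and 1513 to 6880 CPM in wild-type cells, and all 5 fell in Fcgr2b-/- against wild-type with a median of -3.98. Collecting duct markers, 2 of 5 measured, summed to 1.39 to 5.48 CPM in Fcgr2b-/- and 11.4 to 14.0 CPM in wild-type cells, and both fell. The part of these markers in the levels of Cyp2j5 and the other P450 genes that fell was not tested. The count of 13 was 8 without Fcgr2b-/- replicate 3. Double-mutant against Fcgr2b-/- cells gave 2 called members, 9.52% against a background of 29.6% (15.8% higher and 13.8% lower), which were Cyp27a1 and, lower by a log2 change of -1.99 ± 0.63, Cyp24a1 (adjusted p = 0.0318). The count was 1, Cyp27a1 alone, without Fcgr2b-/- replicate 3 or double-mutant replicate 2 or 3.

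**Figure D5:**
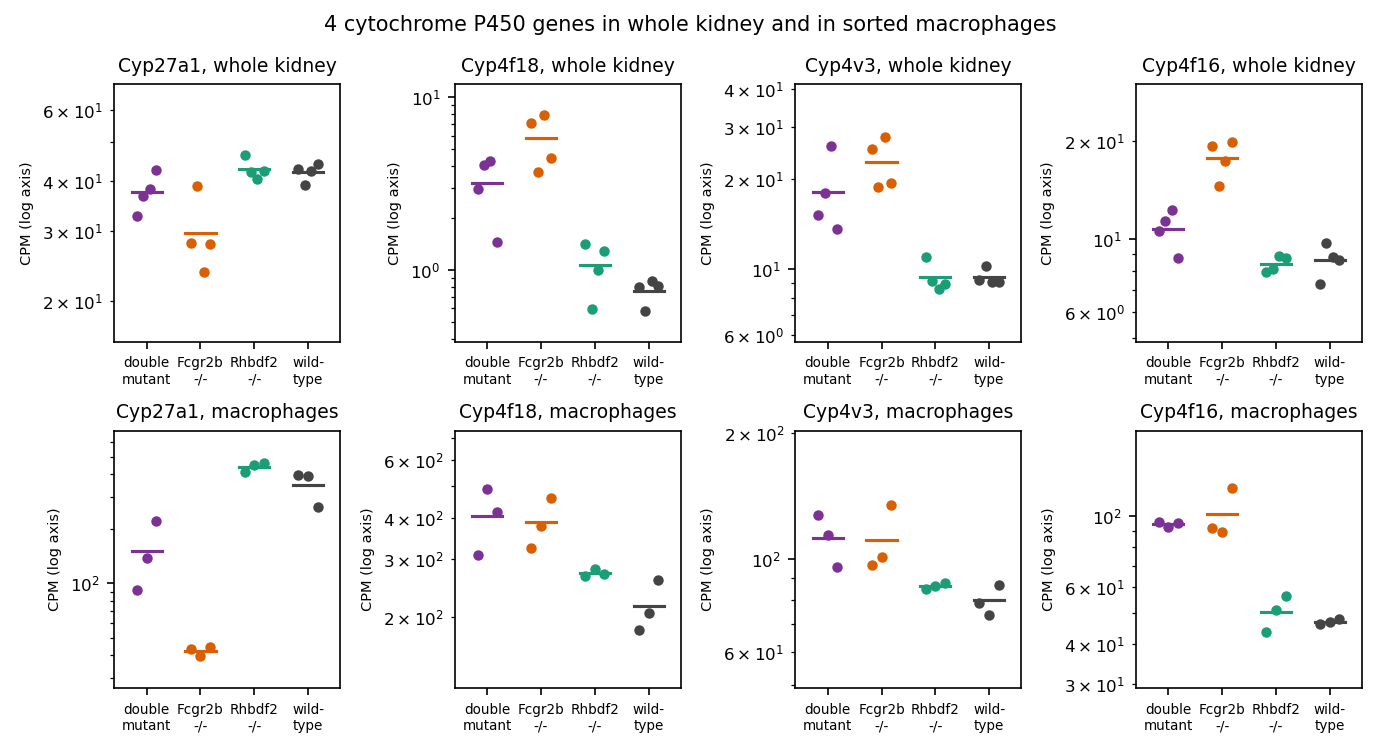
CPM of Cyp27a1, Cyp4f18, Cyp4v3 and Cyp4f16 (log axes that differ between panels) in whole kidney (top, 4 libraries per genotype) and in sorted macrophages (bottom, 3 libraries per genotype), with a line at the mean. Cyp27a1 in macrophages is lowest in Fcgr2b-/- at 39.4 to 44.4 CPM and lies at 92.2 to 222 CPM in double mutants, and Cyp4f18, Cyp4v3 and Cyp4f16 are lowest in wild-type and Rhbdf2-/-.

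The partners of P450 enzymes moved in both directions in Fcgr2b-/- against wild-type kidney, where 29.5% of all genes rose and 30.8% fell. Of 11 genes for electron donors and haem metabolism 3 rose and 6 fell. Por, the P450 reductase, averaged 211 ± 58.2 CPM in Fcgr2b-/- and 297.5 ± 18.5 CPM in wild-type kidney (SD, n = 4 each) and fell by 0.54 (limma adjusted p = 0.00645), and Fdx1, the mitochondrial ferredoxin, fell by 0.68 (adjusted p = 0.000526). Hmox1, which breaks down haem, rose by 2.66 ± 0.43 and Cyb5r3, a cytochrome b5 reductase, by 0.77 ± 0.06. Of 20 measured transcription factors known to control P450 genes 3 rose and 12 fell, with a median log2 change of -0.455, against -0.009 over all genes. Hnf4a, which maintains proximal tubule genes, fell by 0.99 (adjusted p = 0.000206), and Cebpb, an acute-phase factor, rose by 1.89 ± 0.16. In double mutants against Fcgr2b-/- 9 of the 20 rose and 2 fell, where 22.5% of all genes rose and 22.8% fell.

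Among 17 measured enzymes of arachidonic acid outside the P450 family 9 rose and 3 fell in Fcgr2b-/- against wild-type kidney, and this and the next counts stand against the same 60.3% of all genes called. Alox5ap, which presents arachidonate to the leukotriene pathway, averaged 23.8 ± 8.70 CPM in Fcgr2b-/- and 4.09 ± 0.50 CPM in wild-type kidney (SD, n = 4 each), a rise of 2.22 ± 0.34 (limma adjusted p = 6.35e-05). Ephx1, an epoxide hydrolase, rose by 1.13 ± 0.24, and Hpgd, which inactivates prostaglandins, fell by 1.02. Of 16 measured PPAR alpha targets 2 rose and 6 fell, with a median of -0.13, and the acyl-CoA dehydrogenase Acadm fell by 2.13 (adjusted p = 1.4e-06). Of 14 measured sterol and steroid genes 4 rose and 7 fell, led by Cyp51, the P450 of cholesterol synthesis, at 104 ± 14.8 CPM in Fcgr2b-/- and 459 ± 18.8 CPM in wild-type kidney (adjusted p = 1.94e-09). Of 12 measured retinoid genes 4 rose and 2 fell, with Aldh1a2, which makes retinoic acid, up by 2.12 ± 0.46. Of 21 measured conjugating enzymes and transporters of foreign chemicals 5 rose and 8 fell, and of 4 measured genes known for higher levels in male kidney 1 rose and 2 fell. Both of these lists share members with the proximal tubule markers, whose part was not tested.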

How the data were processed

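Whole kidney (16 libraries, 4 per genotype) and sorted macrophages (12 libraries, 3 per genotype) were grouped by the genotype label. The authors deposited log2 CPM values, per the file headers, beside log2 fold changes, p-values and FDR of their own comparisons, which served as an alternative. The authors' column of exon length in bases gave CPM per kilobase. The submitters' processing notes name mm10 and GRCm38, while aligner, counting program and strand use were not given in the sources used here. Filtering of low genes by the authors can list a gene because of 1 group.

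CPM was taken back from the deposited log2 values. Low values, below 0.6 CPM, were whole multiples of 1 read in every library (100%, tolerance 0.1 read), which gave reads per library. The design foresaw limma on log2(CPM+1) for normalized values, and it was used: limma 3.58.1 in R 4.3.3, with trend, all 4 groups of a tissue in 1 fit, p-values adjusted by Benjamini-Hochberg over all genes and a threshold of 0.05. Fold changes on this scale are understated for low genes, and 3 reads, the floor, equalled 0.0677 to 0.106 CPM in kidney. A count test was not run on the recovered reads, and voom stood in for it. Alternatives were pseudocounts of 0.25 and 4, a mean CPM of at least 1, 2 other scalings, no trend, voom, only the 2 groups compared, each library left out, and, chosen after seeing the data, both libraries rich in mitochondrial reads left out.

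Promoter windows were read from RefSeq, shared 50-base stretches and exon overlaps from GENCODE vM21. Of the 36 members 35 were matched there by symbol, Cyp2c44 not. Members, lists and tests were chosen with earlier results of these data known. Values are given for the members named in the rule, the most abundant, the largest called changes of each comparison, the highest level and smallest p of each role, and those called or highest in macrophages, and of the other lists for up to 6 genes with the smallest p. Members outside this rule are named to account for the whole family. The tables held 0 further columns of sample values.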

Additional observations from a re-analysis of the deposited data

Results flagged for a closer look

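A single library stood far from the other 3 of its group for 5 members of 144 gene and genotype combinations in kidney, where a rule that picks 1 in 20 by chance would pick about 7.2. Cyp26b1 was 36.5 CPM in Rhbdf2-/- replicate 1, against 6.26 to 7.73 CPM in the others of that group. Cyp2c44 was 164 CPM in double-mutant replicate 4, against 84.3 to 87.7 CPM. Cyp2u1 was 2.79 CPM in wild-type replicate 2, against 3.78 to 3.89 CPM. Cyp4v3 was 10.2 CPM in wild-type replicate 2, against 9.07 to 9.17 CPM. Cyp7b1 was 13.7 CPM in wild-type replicate 4, against 3.45 to 4.41 CPM.

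The difference between kidney groups without and with Rhbdf2 was not the same without and with Fcgr2b for 13 members. These were 36.1% of the family against a background of 27.8% of all genes, and genotype and lane cannot be told apart. The measure was the interaction term of limma (log2 scale, adjusted p below 0.05). It was positive for Cyp2d12 at 4.28, Cyp4f14 at 2.33, Cyp2j11 at 1.68, Cyp2c44 at 1.59, Cyp2j5 at 1.44, Cyp2d26 at 1.41, Cyp2a4 at 1.04 and Cyp2r1 at 0.58. It was negative for Cyp27b1 at -3.06, Cyp2j13 at -3.01, which is listed only through the Fcgr2b-/- libraries, Cyp4a12b at -2.45, Cyp4a12a at -1.94 and Cyp4f16 at -0.65. The values for Cyp2r1 (adjusted p = 0.0492) and Cyp4a12a (adjusted p = 0.0468) lay next to the threshold and were lost in 15 and 16 alternatives, with adjusted p up to 0.107 and 0.155.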

How the results depend on the processing

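The 24 members called in Fcgr2b-/- against wild-type kidney numbered 23 to 26 under other pseudocounts, scalings, fits and the authors' deposited table, and 22 to 27 with 1 library left out. The 20 of double mutant against Fcgr2b-/- kidney numbered 14 (only the compared groups in the fit) to 22, and 16 to 19 with 1 library left out, and the 13 interactions 11 to 14 and 11 to 16. Double mutant against wild-type kidney gave 3, with 1 to 4 when 1 library was left out and 5 without both replicate 4 libraries. Double mutant against Rhbdf2-/- kidney gave 2, with 0 to 4 when 1 library was left out, 1 with a pseudocount of 4, 1 with voom and 5 without both replicate 4 libraries. Rhbdf2-/- against wild-type kidney gave 0 to 0 with 1 library left out. In macrophages the 13 of Fcgr2b-/- against wild-type ranged from 8 to 17 and the 2 of double mutant against Fcgr2b-/- from 1 to 3 with 1 library left out, and that count of 2 was 1 in the authors' deposited table. The cause of these moves was not tested. In kidney no member changed direction while called, and the direction of single members in macrophages was not compared between alternatives. The limit of a mean CPM of at least 1 removed no kidney gene, since the lowest mean was 1.32. No paired analysis was possible because the kidney labels give no replicate numbers shared between genotypes. Depth covers counting error only, and members below 2 CPM rest on few reads.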
